A study of Homo sapiens with 12 samples.

Results

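The genes described here are those of the aminoacyl-tRNA synthetases, 35 genes listed by name. They comprise 19 genes of cytosolic enzymes and 16 of mitochondrial enzymes, out of 60658 rows of the expression table, 13393 of which were tested. All 19 cytosolic and all 16 mitochondrial genes were among the tested rows, and both lists are described apart. The list does not hold every human synthetase.

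Aminoacyl-tRNA synthetases join each amino acid to its matching tRNA, the step that sets which amino acid the ribosome adds for a codon. The cytosol and the mitochondria run separate translation systems, so most amino acids have one enzyme for each, and both enzymes are encoded in the nucleus. KARS1 and GARS1 are exceptions, since each gene encodes a cytosolic and a mitochondrial enzyme. Several cytosolic synthetases sit together in the multi-synthetase complex, held by the scaffold proteins AIMP1, AIMP2 and EEF1E1. Many cytosolic synthetase genes are known targets of ATF4, the transcription factor that rises when amino acids run short.

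RNA was measured in K-562, a human erythroleukaemia line in which the transcription factor MYB is expressed, 24 h after siRNA transfection. The libraries were poly(A)-selected and stranded, and each of the 4 groups held 3 libraries from experiments described as separate. The siRNA_Control group was a line stably expressing 3xTY1 that received the non-targeting siGENOME siRNA, and the MYB_KnockDown group was a 3xTY1 line that received si2992 against MYB. The MYB-WT_Rescue group stably expressed 3xTY-hcM and the D152V_Rescue group 3xTY-D152V, a form of MYB with the amino acid change D152V, and both also received si2992. Selection used G418 at 200 µg/ml. No second line of any construct was given, so the MYB form and the line that carries it cannot be told apart.

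MYB stood at 120.1 ± 14.2 FPKM (fragments scaled to transcript length and library size, mean ± SD, n = 3 here and throughout) in the control. It was 30.2 ± 3.59 in the knockdown, 124 ± 8.87 in the wild-type rescue and 91.1 ± 8.11 in the D152V rescue, and the knockdown libraries did not overlap those of any other group. FPKM is given per gene, so transcripts of the MYB gene and of the construct were not told apart in the rescue lines. MYB was 0.44 lower in the D152V rescue than in the wild-type rescue on the log2(FPKM + 1) scale (SE 0.13, limma adjusted p = 0.0494), a call lost in 16 of 19 alternative analyses (adjusted p from 0.00542 to 0.164, and 0.0640 with the replicate block). MYB_KnockDown replicate 1 stood apart from the rest: its FPKM summed to 1215578 against 672616 to 798362 elsewhere, and it lay outside the range of the other 11 libraries for 65% of tested genes. All 9 erythroid markers were detected in every group. Among markers of other cell types, CD3D reached 77.2 to 109.6 FPKM in the D152V rescue against 33.3 to 58.9 in the wild-type rescue, LYZ 3.42 to 5.04 against 10.6 to 13.9 and EPCAM 32.1 to 36.0 against 51.9 to 72.6, while MS4A1 was listed at 0 in every library. The other T-cell, monocyte and epithelial markers read (CD3E, CD2, CD14, FCGR1A and CDH1) stayed under 1 FPKM in both rescue lines. CD3E was at 0.243 to 0.471 FPKM in the D152V rescue against 0.338 to 0.854 in the wild-type rescue, and CD14 at 0.111 to 0.231 against 0.0414 to 0.106. The values of CD3D, LYZ and EPCAM are thus those of single genes. The part of these markers in the differences between the rescue lines was not tested.

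The start regions of the genes are given first, as the ground on which these enzymes are known to be controlled. RefSeq promoter windows (GRCh38.p14, 250 bases before to 50 after a start) matched 16 of the 19 cytosolic and 14 of the 16 mitochondrial genes. LARS1, VARS1, YARS1, AARS2 and VARS2 had no window. The core of the composite element that ATF4 and CEBP proteins bind, TGATGNAA on either strand, was present in 7 of 16 cytosolic genes (43.8%) and 1 of 14 mitochondrial genes (7.14%), against 4.46% of all 27305 genes with a window. In the sequences that follow, each is read on the strand that holds the match and capitals mark it. The 7 cytosolic matches are shown because ATF4 is the best known regulator of this family.
AARS1, chr16:70289676-70289703, plus strand: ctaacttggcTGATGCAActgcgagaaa
CARS1, chr11:3057408-3057435, plus strand: tcctagaatcTGATGCAAccgccgcccc
GARS1, chr7:30594835-30594862, minus strand: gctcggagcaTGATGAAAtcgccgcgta
IARS1, chr9:92293693-92293720, plus strand: cgcacggaggTGATGCAAcgcgctgaaa
MARS1, chr12:57488054-57488081, minus strand: aatccctcgcTGATGCAAccggaaccgg
NARS1, chr18:57621805-57621832, minus strand: ctacgctctcTGATGCAAcgccggaatc
TARS1, chr5:33440957-33440984, minus strand: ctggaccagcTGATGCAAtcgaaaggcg

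Of these 7 matches, 6 read TGATGCAA and the GARS1 match read TGATGAAA. The matches in CARS1, IARS1, MARS1, NARS1 and TARS1 lay within 15 bases of a listed start, that in GARS1 33 bases and that in AARS1 187 bases before one. The only mitochondrial match was in YARS2, 197 bases before its start.

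The E-box CACGTG, the palindromic site of MYC and related factors, was searched in the same windows. It was found in 3 of 14 mitochondrial genes (CARS2, EARS2 and MARS2, 21.4%) and in 1 of 16 cytosolic genes (IARS1, 6.25%), against 8.77% of all genes with a window. These counts are small, and whether either list differs from that share was not tested. All 3 mitochondrial matches lay within 15 bases of a listed start, and the IARS1 match lay 186 bases before one. The match of EARS2, a gene that fell in the comparison of the D152V rescue with the knockdown, is given beside that of IARS1.
EARS2, chr16:23557350-23557375, minus strand: gggagaagccCACGTGtgctattcca
IARS1, chr9:92293868-92293893, minus strand: gttcgttttcCACGTGgaggcgcaaa

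The core of the MYB site, AACNG on either strand, is so short that 80.5% of all genes with a window hold it. It occurred in 15 of 16 cytosolic genes (93.8%) and 9 of 14 mitochondrial genes (64.3%). QARS1 and TARS2, which differed between the rescue lines, are shown with the 250 bases before the start, read 5′ to 3′ on the gene's strand with any match to the 3 motifs in capitals. QARS1 held 2 matches, CAGTT and CGGTT, both to AACNG on the opposite strand, and TARS2 held no whole match to the 3 motifs in this stretch. An opposite-strand match of TARS2 to the MYB core, read as CTGTT, begins 2 bases before the start and runs across it, past the end of the printed bases. A match is a description of letters, and no factor's binding was measured.
QARS1, chr3:49104758-49105007, minus strand: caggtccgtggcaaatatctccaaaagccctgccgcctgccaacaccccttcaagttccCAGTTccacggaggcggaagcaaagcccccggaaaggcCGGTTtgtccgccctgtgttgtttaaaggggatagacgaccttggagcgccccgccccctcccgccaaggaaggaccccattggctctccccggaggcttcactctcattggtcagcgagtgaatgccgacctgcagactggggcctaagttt
TARS2, chr1:150487169-150487418, plus strand: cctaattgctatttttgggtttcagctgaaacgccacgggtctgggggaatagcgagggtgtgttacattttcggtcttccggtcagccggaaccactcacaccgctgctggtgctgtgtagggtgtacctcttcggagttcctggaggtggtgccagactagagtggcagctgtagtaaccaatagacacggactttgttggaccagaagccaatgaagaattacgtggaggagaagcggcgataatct

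**Figure D1:**
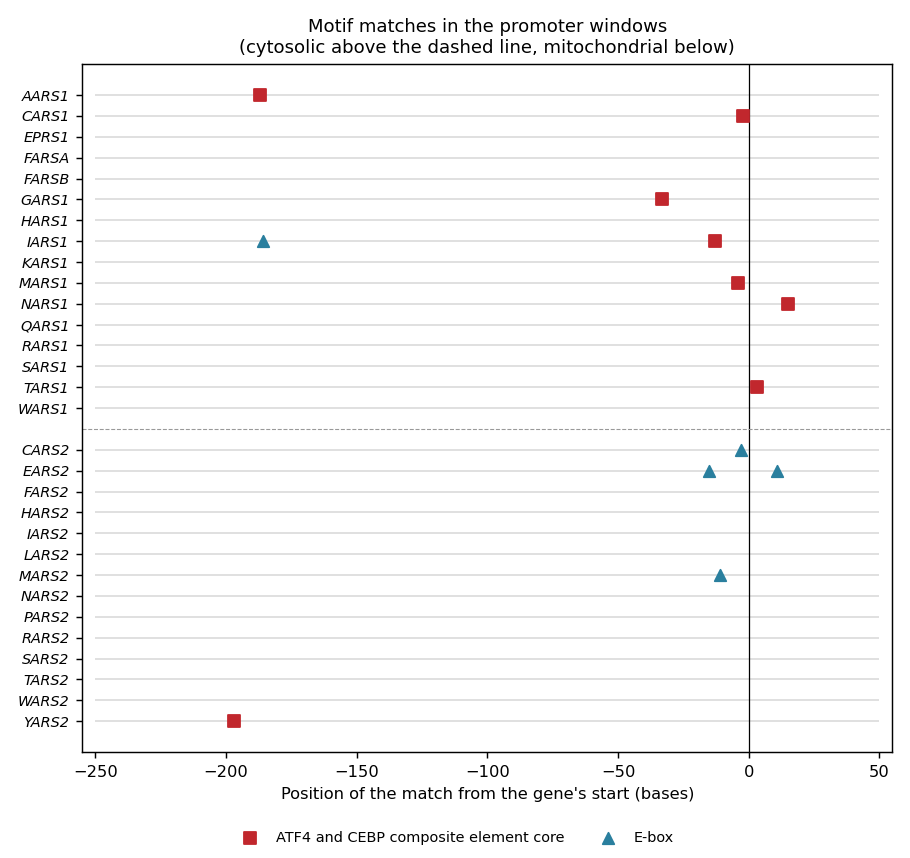
Position of each match to TGATGNAA (squares) and CACGTG (triangles) in the promoter windows of the 30 synthetase genes with a window, in bases from the gene's start (0), with cytosolic genes above the dashed line and mitochondrial genes below it. The squares fall on 7 cytosolic genes and 1 mitochondrial gene; EARS2 has 2 triangles because 1 site is seen from 2 listed starts.

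In the control, the cytosolic genes were expressed at higher levels than the mitochondrial ones. On the per-length FPKM scale the median of the cytosolic genes was 124 FPKM, from CARS1, the cysteine enzyme, at 18.8 ± 3.78 to TARS1, the threonine enzyme, at 297 ± 13.8. The median of the mitochondrial genes was 20.2 FPKM, from PARS2, the proline enzyme, at 6.55 ± 0.481 to IARS2, the isoleucine enzyme, at 65.7 ± 1.77. Neighbours in the order of levels often overlapped: the control means of FARSA, SARS1, VARS1 and QARS1 ran from 153 down to 148 FPKM, closer together than the SDs of 7.88 and 8.19 of FARSA and SARS1.

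Within an amino acid, the ratio of the cytosolic to the mitochondrial gene spanned a wide range in the control. CARS1 and CARS2 were level, with a ratio of 1.04 ± 0.311, whereas MARS1 exceeded MARS2 by a factor of 15.1 ± 2.59. EPRS1, whose protein charges both glutamate and proline, stood 7.10 ± 0.745 times above EARS2 and 15.7 ± 1.57 times above PARS2. FARSA and FARSB encode the subunits of one phenylalanine enzyme, and their ratio was 2.16 ± 0.0315 in the control, 2.24 ± 0.135 in the wild-type rescue and 2.14 ± 0.0452 in the D152V rescue. In the knockdown it was 2.03 ± 0.506, with its highest value, 2.61, in replicate 1.

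**Figure D2:**
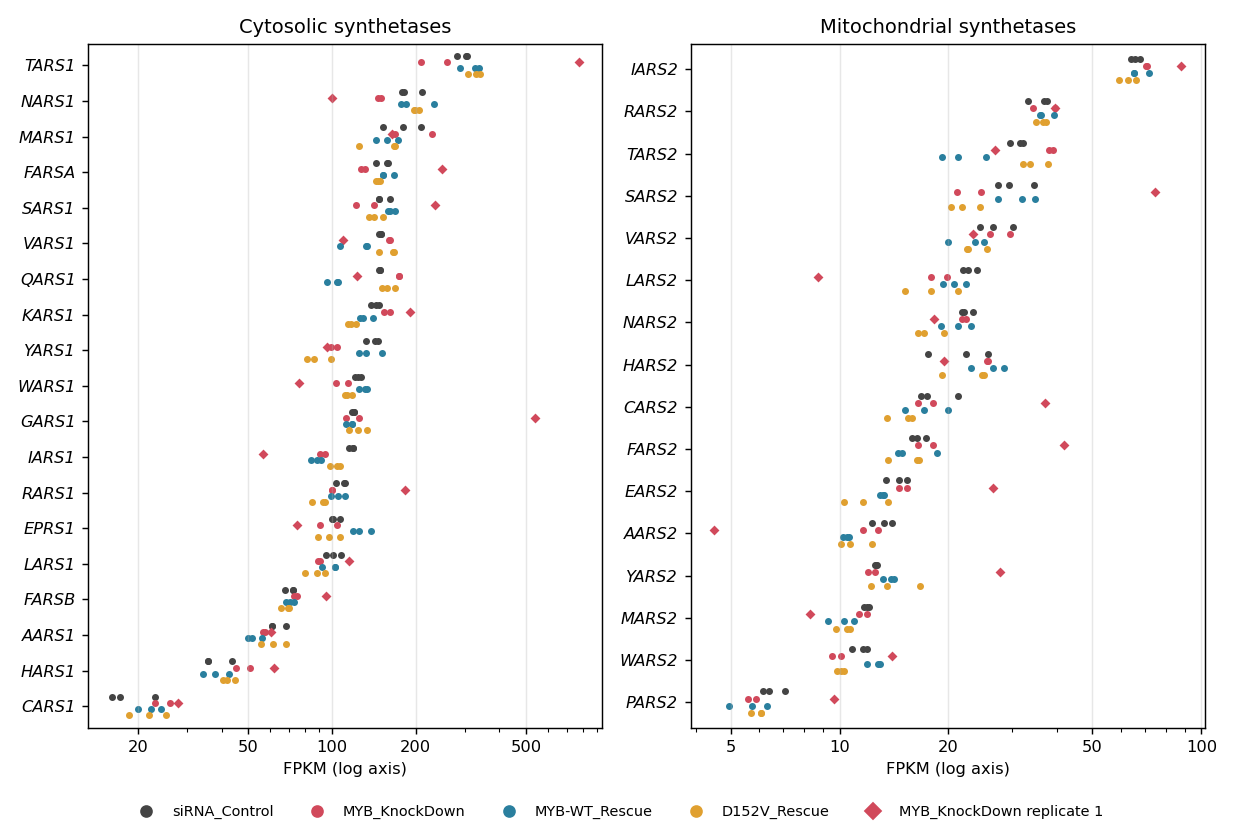
FPKM on a log axis of each synthetase gene in every library, cytosolic genes on the left and mitochondrial genes on the right in the order of their control means, with points coloured by group and MYB_KnockDown replicate 1 as a diamond. TARS1 and IARS2 head their lists, and the diamonds of GARS1 (539 FPKM) and TARS1 (773 FPKM) lie far from the other points of those genes.

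The first comparison sets the knockdown, where MYB stood at 25.1% of its control mean, against the control. The groups received different siRNAs, so lower MYB and other effects of si2992 cannot be told apart. YARS1, the tyrosine enzyme, and IARS1, the isoleucine enzyme, fell in the knockdown, no cytosolic gene rose, and no mitochondrial gene passed the limma test, with 1 of 16 (LARS2) at an unadjusted p under 0.05. The 2 called cytosolic genes are 10.5% of the list, close to the 11.3% of all tested genes that passed (528 higher and 988 lower; limma, Benjamini-Hochberg adjusted p under 0.05), and the median log2 change was 0.06 for the cytosolic, 0.09 for the mitochondrial and -0.03 for all tested genes. At that count the cytosolic list does not stand out from the table. Which genes passed depended on the scaling. HARS1 was higher in the knockdown in the main fit as well, short of the threshold (0.44, limma adjusted p = 0.0643). Under quantile normalization HARS1 passed (0.39, limma adjusted p = 0.0362) and IARS1 lost its call (0.0716). Under median-ratio scaling HARS1 passed (0.49, limma adjusted p = 0.0433) and IARS1 lost its call (0.0645). Each scaling thus called 1 cytosolic gene higher and 1 lower. Those scalings gave 888 higher and 1064 lower, and 700 higher and 794 lower, of all tested genes. Without MYB_KnockDown replicate 1, 6 cytosolic genes passed (QARS1 higher, and TARS1, NARS1, YARS1, FARSA and IARS1 lower) and no mitochondrial gene did, while 20.1% of all tested genes passed.

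Between the knockdown and the wild-type rescue line, 7 cytosolic genes differed, in both directions. Against the knockdown, NARS1, YARS1, EPRS1 and WARS1 rose and QARS1, HARS1 and KARS1 fell, which is 36.8% of the cytosolic list, close to the 37.6% of all tested genes that passed (2765 higher and 2266 lower). TARS2, the mitochondrial threonine enzyme, fell, and it was the 1 mitochondrial gene of 16 to pass. Median log2 changes were -0.14, -0.15 and 0.03 for the cytosolic, mitochondrial and all tested genes. When MYB_KnockDown replicate 1 was left out, 7 cytosolic genes were higher (SARS1, TARS1, NARS1, YARS1, EPRS1, WARS1 and FARSA) and 4 lower (KARS1, HARS1, QARS1 and VARS1), and 2 mitochondrial genes were higher (SARS2 and WARS2) and 1 lower (TARS2), beside 45.2% of all tested genes.

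Between the knockdown and the D152V rescue line, 3 of the 35 genes differed. NARS1 rose and KARS1 fell among the cytosolic genes (10.5%) and EARS2, the mitochondrial glutamate enzyme, fell, beside 25.1% of all tested genes (1745 higher and 1610 lower). The medians were -0.15, -0.16 and 0.02 for cytosolic, mitochondrial and all tested genes. Leaving out MYB_KnockDown replicate 1 gave TARS1 and NARS1 higher, KARS1, EARS2 and NARS2 lower, beside 32.4% of all tested genes. This comparison and the preceding one share the knockdown libraries.

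The direct comparison of the rescue lines does not use the knockdown values, other than through the shared estimate of spread. QARS1 was higher and YARS1 lower in the D152V rescue among the cytosolic genes (10.5%), and TARS2 was higher among the mitochondrial genes (6.25%), beside 12.1% of all tested genes (798 higher and 829 lower). The medians were -0.05, -0.07 and -0.03. The replicate block fits an effect of each replicate number that is shared by all 4 groups, so it does not pair the rescue lines alone. With that block, QARS1 (limma adjusted p = 0.0108), YARS1 (0.00905) and TARS2 (0.0165) kept their calls. EPRS1 joined them, lower in the D152V rescue (0.0362). With the spread estimated without MYB_KnockDown replicate 1, 31.4% of all tested genes passed, and with them 7 cytosolic genes (QARS1, IARS1 and VARS1 higher, RARS1, YARS1, EPRS1 and WARS1 lower) and 3 mitochondrial genes (TARS2 higher, SARS2 and WARS2 lower).

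Against the control, the wild-type rescue differed in QARS1 alone of the 35 genes (9.62% of all tested genes passed) and the D152V rescue in YARS1 alone (9.55%). These counts were 7 genes (beside 29.7% of all tested genes) and 7 genes (beside 27.7%) when MYB_KnockDown replicate 1 was left out. Over the 6 comparisons, 8 of 19 cytosolic genes (42.1%) and 2 of 16 mitochondrial genes (12.5%) passed at least once, beside 49.5% of all tested genes, and 11 and 14 passed in none.

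**Figure D3:**
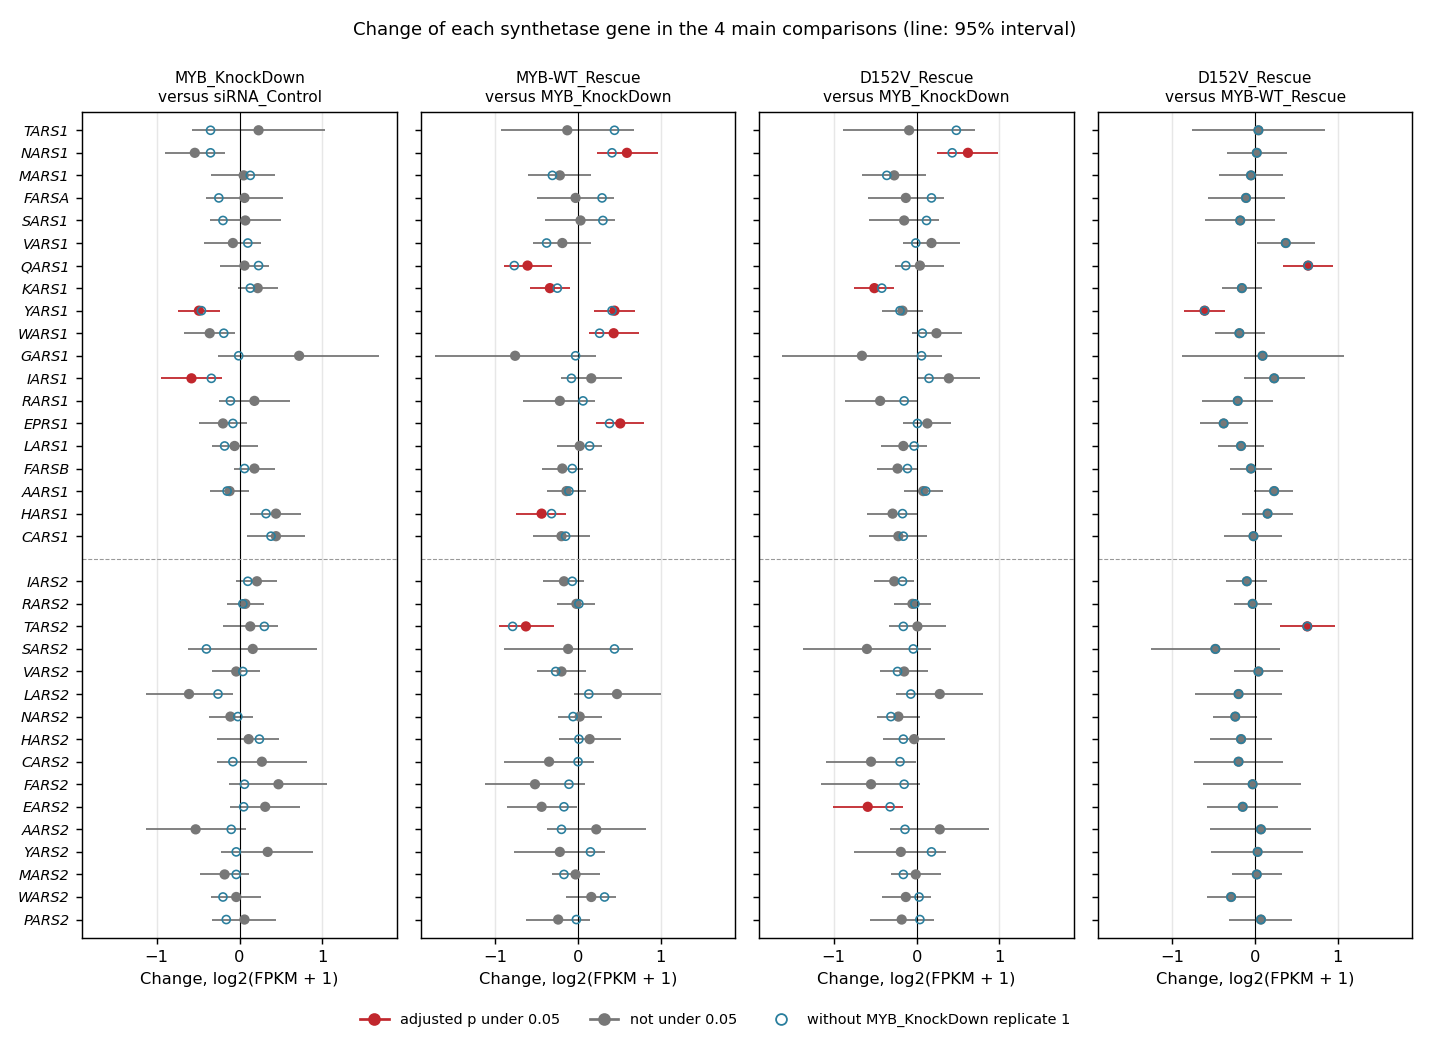
Change of each synthetase gene on the log2(FPKM + 1) scale in 4 comparisons, with filled points and lines for the estimate and its 95% interval, red where the adjusted p was under 0.05, and open circles for the estimate without MYB_KnockDown replicate 1. Red points fall on both sides of 0 in the wild-type rescue against the knockdown, and the long intervals of GARS1, TARS1 and SARS2 belong to genes whose value in replicate 1 was extreme.

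Among the enzymes of the multi-synthetase complex, QARS1 was the gene called between the rescue lines over the 12 libraries. QARS1 (chr3:49095932-49104757, GRCh38.p14) encodes the glutamine enzyme. It stood at 147, 149 and 149 FPKM in the control, 123, 174 and 174 in the knockdown, 104, 96.1 and 105 in the wild-type rescue and 151, 158 and 169 in the D152V rescue. All 3 wild-type rescue libraries lay below the other 9 libraries. The D152V rescue exceeded the wild-type rescue by 0.64 on the log2 scale (SE 0.14, limma adjusted p = 0.00946), a call kept in all 19 alternatives (2.74e-05 to 0.0457). The fall of 0.61 from knockdown to wild-type rescue (SE 0.14, limma adjusted p = 0.00611) was lost under quantile normalization and in a fit of the 6 libraries compared (up to 0.117). The wild-type rescue was 0.54 below the control (limma adjusted p = 0.0287), a call lost under quantile normalization and without any 1 of the 6 libraries compared, with adjusted p from 0.0701 to 0.109 on leaving out 1 of them and up to 0.135 over the alternatives.

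KARS1 (chr16:75627724-75647665) encodes the lysine enzyme of both compartments. Its values were 138, 144 and 148 FPKM in the control, 190.2, 161 and 154 in the knockdown, 126, 129 and 140.4 in the wild-type rescue and 114, 122 and 117 in the D152V rescue. The 3 knockdown libraries were the highest and the 3 D152V libraries the lowest. From knockdown to D152V rescue KARS1 fell by 0.51 (SE 0.11, limma adjusted p = 0.00888), a call lost under quantile normalization and in the fit of 6 libraries (range 0.00136 to 0.149). From knockdown to wild-type rescue it fell by 0.34 (SE 0.11, limma adjusted p = 0.0297, range 0.0122 to 0.314), a call lost in 5 alternatives, among them leaving out MYB-WT_Rescue replicate 1 (0.0950) or 2 (0.0851). KARS1 did not pass between the rescue lines (difference -0.16, interval -0.40 to 0.08).

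EPRS1 (chr1:219968600-220046505) encodes the joined glutamate and proline enzyme. It was at 99.7, 101 and 107 FPKM in the control, 74.9, 90.7 and 104 in the knockdown, 119, 125 and 138 in the wild-type rescue and 88.7, 97.6 and 107 in the D152V rescue. The wild-type rescue libraries were the 3 highest of the 12. EPRS1 rose by 0.51 from knockdown to wild-type rescue (SE 0.13, limma adjusted p = 0.0124, range 0.00514 to 0.0958), lost in the fit of 6 libraries. The D152V rescue was 0.38 below the wild-type rescue, a difference that missed the threshold (interval -0.67 to -0.09, limma adjusted p = 0.0926). It was lower in the D152V library of each same-numbered pair. It passed with the replicate block, as given above, and without MYB_KnockDown replicate 1 (0.00655), with a range over the alternatives of 0.00655 to 0.323.

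IARS1 (chr9:92210207-92293697) carries both the composite element and the E-box printed above. It measured 119, 119 and 115 FPKM in the control, 56.2, 90.6 and 94.6 in the knockdown, 88.0, 84.0 and 91.2 in the wild-type rescue and 107, 98.1 and 104 in the D152V rescue. The control libraries were the 3 highest of all. The knockdown was 0.58 below the control (SE 0.17, limma adjusted p = 0.0480) with replicate 1 and 0.34 below it without (0.00567). That call was lost in 14 of 19 alternatives (up to 0.231), including the removal of any 1 control library (0.104 to 0.143) or any 1 rescue library (0.0673 to 0.0728). Of the other complex enzymes, LARS1, MARS1 and RARS1 passed in no comparison, and none of the 3 scaffold genes AIMP1, AIMP2 and EEF1E1 passed either by limma, with EEF1E1 alone at an unadjusted p under 0.05, from knockdown to wild-type rescue. AIMP2 was, with MYB_KnockDown replicate 1 left out, lower in the knockdown (-0.35, limma adjusted p = 0.0237) and higher in both rescue lines than in the knockdown.

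Outside the complex, YARS1 (chr1:32775239-32817358), the tyrosine enzyme, was near the control level in the wild-type rescue line and low in the D152V rescue line. YARS1 was at 146, 132 and 143 FPKM in the control, 95.6, 99.4 and 104 in the knockdown, 132, 151 and 125 in the wild-type rescue and 81.1, 86.2 and 99.0 in the D152V rescue. The 6 control and wild-type rescue libraries all lay above the 6 knockdown and D152V libraries. The D152V rescue was 0.61 below the wild-type rescue (SE 0.12, limma adjusted p = 0.00513, range 4.91e-04 to 0.0298) and 0.66 below the control (SE 0.12, limma adjusted p = 0.00412, up to 0.0285), and both calls were kept in all 19 alternatives. It fell by 0.49 in the knockdown (SE 0.12, limma adjusted p = 0.0257, range 0.00973 to 0.167), a call lost without siRNA_Control replicate 1 (0.108), 2 (0.0772) or 3 (0.0753). The rise of 0.44 to the wild-type rescue (limma adjusted p = 0.0131, range 0.00586 to 0.0958) was lost without MYB-WT_Rescue replicate 2 (0.0586). The D152V rescue and the knockdown were not distinguished (difference -0.17, interval -0.42 to 0.08).

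NARS1 (chr18:57600656-57621836), the asparagine enzyme, rose in both rescue lines. Its values were 178, 210.2 and 181 FPKM in the control, 100.3, 146 and 149.7 in the knockdown, 185, 233 and 177 in the wild-type rescue and 197, 205 and 198 in the D152V rescue. The 3 knockdown libraries were the lowest of the 12. NARS1 rose by 0.59 to the wild-type rescue (SE 0.17, limma adjusted p = 0.0172, range 0.0112 to 0.111), lost without MYB-WT_Rescue replicate 2 (0.0752). It rose by 0.62 to the D152V rescue (SE 0.17, limma adjusted p = 0.0222, range 0.0133 to 0.117), lost without D152V_Rescue replicate 1 (0.0590), 2 (0.0717) or 3 (0.0599). The rescue lines differed by 0.02 (interval -0.34 to 0.39). The knockdown was 0.54 below the control, short of the threshold (limma adjusted p = 0.0572, range 0.0373 to 0.222), and passed on leaving out any 1 knockdown library (0.0373 to 0.0459).

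WARS1 (chr14:100333790-100376327), the tryptophan enzyme, stood at 124, 127 and 121 FPKM in the control, 75.8, 114 and 103 in the knockdown, 131, 125 and 133 in the wild-type rescue and 111, 113 and 118 in the D152V rescue. The knockdown libraries lay below all control and wild-type rescue libraries and overlapped the D152V libraries. WARS1 rose by 0.43 from knockdown to wild-type rescue (SE 0.14, limma adjusted p = 0.0311, range 0.0102 to 0.161), a call lost without any 1 of the wild-type rescue libraries (0.0646 to 0.0811). The same rise was 0.26 without MYB_KnockDown replicate 1 (0.0106).

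HARS1 and HARS2, the cytosolic and mitochondrial histidine enzymes, lie back to back on chromosome 5 and are transcribed away from each other. The 84 bases between their RefSeq starts are shown because both genes start at its ends; 59.5% of them are G or C, and none of the 3 motifs occurs there.
HARS1 to HARS2, chr5:140691371-140691454, plus strand: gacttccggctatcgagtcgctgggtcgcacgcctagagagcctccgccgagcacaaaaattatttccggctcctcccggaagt

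HARS1 (chr5:140673905-140691370) was at 35.8, 35.7 and 43.6 FPKM in the control, 61.8, 44.9 and 50.8 in the knockdown, 34.3, 37.8 and 42.5 in the wild-type rescue and 40.4, 41.9 and 44.8 in the D152V rescue. The 3 knockdown libraries were the highest of the 12. HARS1 fell by 0.44 from knockdown to wild-type rescue (SE 0.14, limma adjusted p = 0.0293, range 0.0147 to 0.130), a call lost without MYB-WT_Rescue replicate 1 (0.105) or 2 (0.0777). The knockdown exceeded the control by 0.44, short of the threshold (limma adjusted p = 0.0643, range 0.0326 to 0.238), and it passed without MYB_KnockDown replicate 2 (0.0326).

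HARS2 (chr5:140691455-140699305) read 17.6, 25.8 and 22.4 FPKM in the control, 19.4, 25.6 and 25.8 in the knockdown, 23.1, 26.5 and 28.4 in the wild-type rescue and 19.2, 24.8 and 25.0 in the D152V rescue. The 4 groups overlapped throughout, and HARS2 passed in none of the 6 comparisons. From knockdown to wild-type rescue its change was 0.14 (interval -0.23 to 0.52), beside the fall of HARS1. The difference between the changes of both genes was not tested.

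GARS1 (chr7:30594735-30634033) encodes the glycine enzyme of both compartments and shows how far 1 library can carry a mean. It was at 119.6, 118 and 119.9 FPKM in the control, 539, 112 and 125 in the knockdown, 112, 118 and 118 in the wild-type rescue and 115, 124 and 133 in the D152V rescue. The first knockdown library alone was high, and the other 11 lay between 112 and 133. The knockdown mean was 0.72 above the control (SE 0.44, limma adjusted p = 0.280) with that library and -0.01 from it without (0.943), and GARS1 passed in no comparison under any alternative.

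**Figure D4:**
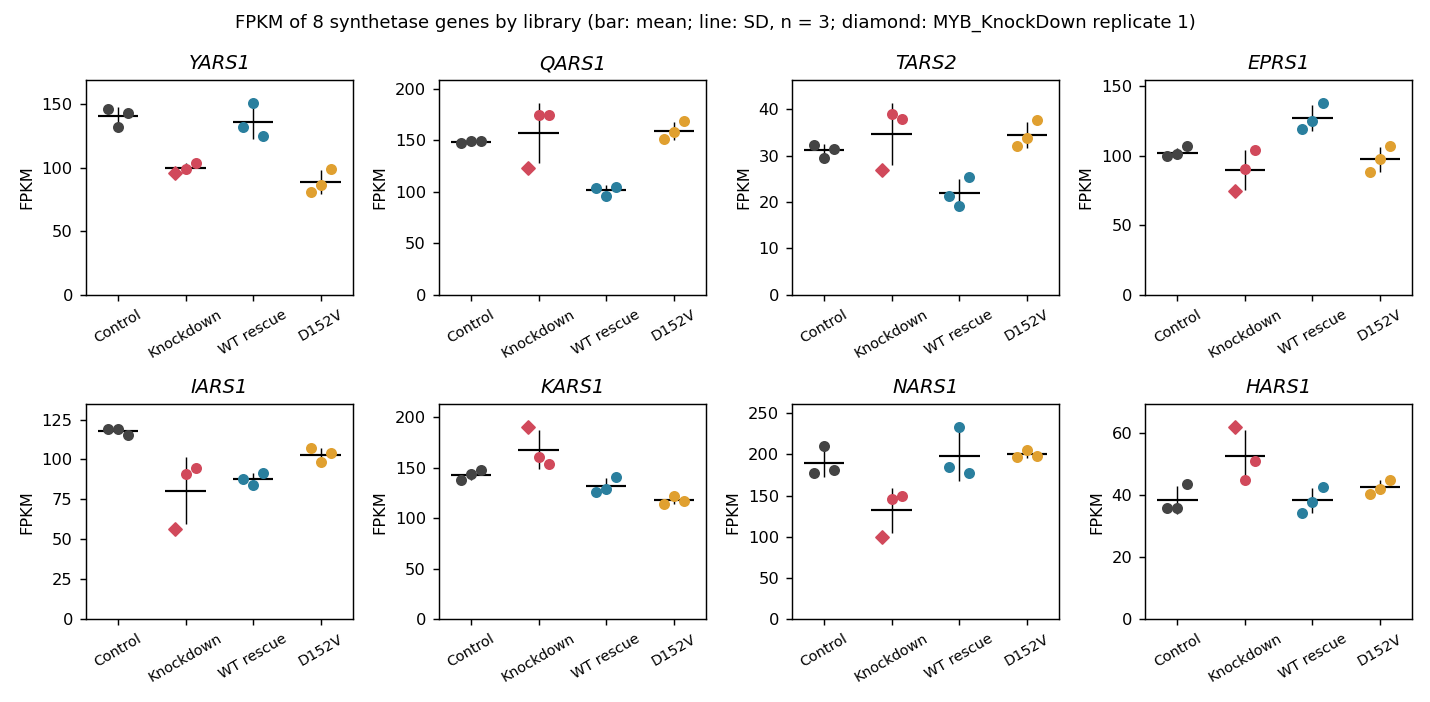
FPKM of 8 synthetase genes in each library of the 4 groups, with a bar for the mean and a line for the SD (n = 3) and a diamond for MYB_KnockDown replicate 1. YARS1 is low in the knockdown and D152V groups, and QARS1 and TARS2 are low in the wild-type rescue.

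Among the mitochondrial genes the smallest adjusted p was that of TARS2 (chr1:150487419-150507602), the threonine enzyme. TARS2 stood at 32.2, 29.5 and 31.5 FPKM in the control, 26.9, 39.0 and 37.9 in the knockdown, 21.3, 19.2 and 25.4 in the wild-type rescue and 32.1, 33.7 and 37.6 in the D152V rescue. As with QARS1, the 3 wild-type rescue libraries were the lowest of the 12. TARS2 fell by 0.63 from knockdown to wild-type rescue (SE 0.15, limma adjusted p = 0.00954, range 2.36e-04 to 0.0817), lost in the fit of 6 libraries. The D152V rescue was 0.63 above the wild-type rescue (SE 0.15, limma adjusted p = 0.0196, range 6.86e-04 to 0.0924), a call lost without MYB-WT_Rescue replicate 1 (0.0683) or 2 (0.0924) or D152V_Rescue replicate 2 (0.0593) or 3 (0.0824). Its cytosolic counterpart TARS1 differed by 0.04 between the rescue lines (interval -0.76 to 0.84), and the ratio of TARS1 to TARS2 was 9.56 ± 0.787 in the control, 14.7 ± 2.53 in the wild-type rescue and 9.48 ± 0.666 in the D152V rescue.

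EARS2 (chr16:23520754-23557375), the mitochondrial glutamate enzyme, was at 14.6, 15.4 and 13.4 FPKM in the control, 26.5, 14.6 and 15.4 in the knockdown, 13.2, 12.9 and 13.3 in the wild-type rescue and 10.3, 13.6 and 11.6 in the D152V rescue. The first knockdown library alone was above the control range, while all 3 wild-type rescue libraries and D152V libraries 1 and 3 were below it. The fall of 0.59 from knockdown to D152V rescue (SE 0.19, limma adjusted p = 0.0473, range 0.0236 to 0.195) was lost in 12 of 19 alternatives, among them the removal of any 1 control library (0.0644 to 0.0683), any 1 wild-type rescue library (0.0646 to 0.0667) or any 1 D152V library (0.0672 to 0.147). The fall was 0.32 without MYB_KnockDown replicate 1 (0.0434).

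The other 14 mitochondrial genes passed in no comparison over the 12 libraries. SARS2, the serine enzyme, and WARS2, the tryptophan enzyme, had D152V rescue libraries below all those of the wild-type rescue, with means of 22.2 ± 2.06 against 31.3 ± 3.76 FPKM and 10.1 ± 0.203 against 12.5 ± 0.573. Without MYB_KnockDown replicate 1 in the estimate of spread, both differences passed, at -0.48 for SARS2 (limma adjusted p = 0.00924) and -0.29 for WARS2 (0.0153). The start of WARS2 is overlapped by an antisense gene, WARS2-AS1, and the sources used here do not say whether the quantification used strand, so reads of both genes may be mixed.

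Genes that act on tRNA around the synthetases were read in lists of their own. Of 16 genes of nuclear tRNA maturation, export and proofreading, TSEN34 rose and RTCB and XPOT fell in the knockdown, 3 rose (TRNT1, RTCB and XPOT) and 5 fell (DTD1, ELAC1, TSEN34, TSEN54 and YRDC) in the wild-type rescue against it, 2 rose (TRNT1 and XPOT) and 4 fell (TSEN34, TSEN54, YRDC and AARSD1) in the D152V rescue against it, and RTCB and XPOT were lower in the D152V than in the wild-type rescue. These are 18.8%, 50%, 37.5% and 12.5% of the list, beside 11.3%, 37.6%, 25.1% and 12.1% of all tested genes. Without MYB_KnockDown replicate 1 the 4 counts were 2 up and 4 down, 4 up and 5 down, 3 up and 5 down, and 0 up and 4 down, which is 37.5%, 56.2%, 50% and 25.0% of the list beside 20.1%, 45.2%, 32.4% and 31.4%. The least stable calls were the fall of TSEN54 to the wild-type rescue (limma adjusted p = 0.0425, range 0.00591 to 0.165), lost in 13 of 19 alternatives, and the rise of TSEN34 in the knockdown (0.0349, range 0.0146 to 0.194), lost in 9. Between the rescue lines XPOT lost its call in 6 alternatives (up to 0.105) and RTCB in 3 (up to 0.0645). XPOT, the exportin that carries tRNA out of the nucleus, averaged 100.2 ± 2.81 FPKM in the control, 63.0 ± 8.08 in the knockdown, 135 ± 5.36 in the wild-type rescue and 96.9 ± 8 in the D152V rescue. XPOT rose by 1.09 from knockdown to wild-type rescue (SE 0.12, limma adjusted p = 1.06e-04, range 1.21e-05 to 0.0126). RTCB, the ligase that joins tRNA exons in splicing, rose by 0.54 in the same comparison (SE 0.10, limma adjusted p = 0.00229, range 5.00e-04 to 0.0498).

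Of 9 genes that act with mitochondrial tRNA, HSD17B10 rose in the knockdown, MTO1 rose and HSD17B10 and TRMU fell in the wild-type rescue against the knockdown, HSD17B10 and TRMU fell in the D152V rescue against it, and none passed between the rescue lines by limma. There, 3 genes (GATB, MTFMT and QRSL1) had an unadjusted p under 0.05, and QRSL1 passed, lower in the D152V rescue, without MYB_KnockDown replicate 1. Over the 12 libraries the 4 counts are 11.1%, 33.3%, 22.2% and 0.00% of this list, in each comparison below the share of all tested genes given for the preceding list. When replicate 1 was left out, the other 3 comparisons gave 1 up and 1 down, 2 up and 2 down, and 1 up and 2 down, or 22.2%, 44.4% and 33.3% of the list, each within 3 percentage points of all tested genes. HSD17B10, a subunit of mitochondrial RNase P, averaged 84.8 ± 5.73 FPKM in the control, 189.5 ± 112 in the knockdown, 61.8 ± 2.47 in the wild-type rescue and 70.9 ± 3.79 in the D152V rescue. Its rise in the knockdown was 1.00 (limma adjusted p = 0.0448, range 0.00168 to 0.221), a call lost in 12 of 19 alternatives, and 0.56 without MYB_KnockDown replicate 1. Its fall to the wild-type rescue was 1.45 (SE 0.28, limma adjusted p = 0.00308, range 1.21e-05 to 0.0465), and 1.01 without that library.

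The ATF4 program was read in 16 genes that are not synthetases, since 7 of the cytosolic synthetase genes hold the composite element. ATF4 itself passed in none of the 6 comparisons over the 12 libraries (limma adjusted p from 0.140 to 0.874). ATF4 passed in 1 of 19 alternatives for the D152V rescue against the knockdown (0.0358), and in none for the other comparisons. DDIT3 rose and SHMT2 fell in the knockdown. SLC7A11 rose and CEBPB fell in the wild-type rescue against the knockdown, and 5 genes fell in the D152V rescue against it (PHGDH, PSAT1, PSPH, CEBPB and DDIT3). PSAT1 and SLC7A11 were lower in the D152V than in the wild-type rescue. In this order the calls are 12.5%, 12.5%, 31.2% and 12.5% of the list, beside 11.3%, 37.6%, 25.1% and 12.1% of all tested genes. With MYB_KnockDown replicate 1 left out, the counts were 1 up and 1 down, 1 up and 4 down, 0 up and 5 down, and 0 up and 4 down, or 12.5%, 31.2%, 31.2% and 25.0% beside 20.1%, 45.2%, 32.4% and 31.4%. In the knockdown the call of DDIT3 (limma adjusted p = 0.0478, range 0.00959 to 0.224) was lost in 12 of 19 alternatives and that of SHMT2 (0.0174, range 3.07e-04 to 0.167) in 4. In the D152V rescue against the knockdown the call of CEBPB (0.0364, range 0.0157 to 0.168) was lost in 10, those of PSPH and DDIT3 in 5 each and that of PHGDH in 4, while that of PSAT1 was kept in all 19. PSAT1, an enzyme of serine synthesis, averaged 33.2 ± 1.47 FPKM in the control, 33.9 ± 6.57 in the knockdown, 27.8 ± 2.95 in the wild-type rescue and 15.8 ± 1.55 in the D152V rescue, 0.78 lower than in the wild-type rescue (SE 0.15, limma adjusted p = 0.00502, range 3.30e-04 to 0.0258). SLC7A11, the cystine transporter, averaged 1.66 ± 0.273, 2.01 ± 0.590, 4.11 ± 0.252 and 1.98 ± 0.312 FPKM in the same order. Of the 7 cytosolic synthetase genes with the composite element, NARS1 and IARS1 passed in at least 1 comparison, and AARS1, CARS1, GARS1, MARS1 and TARS1 passed in none. Over the same 6 comparisons, 42.1% of the 19 cytosolic genes and 49.5% of all tested genes passed at least once.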

How the data were processed

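The members and the gene lists were chosen with earlier results of these data known. The authors deposited FPKM per Ensembl gene. Per the submitters' processing notes, bcl2fastq 2.17.1.14, Trimmomatic 0.33, TopHat2 2.0.13, Cufflinks 2.2.1 and GRCh38 were used; no source used here gives their settings, the annotation or whether strand was used. FPKM scales each library to its fragments and each gene to its length, and depth is unknown: only 5.05% of low-value ratios (median over library pairs) lay within 2% of a common step, so no reads were recovered.

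A gene was tested if 3 or more of the 12 libraries reached 1 FPKM, which left 13393. The test was made with limma 3.58.1 (R 4.3.3) on log2(FPKM + 1), which understates changes of low genes, with 1 mean per group, a variance trend, 8 residual degrees of freedom and adjusted p-values (Benjamini-Hochberg, whole table) called under 0.05. Scripts ran in Python 3.11.15 with pandas 2.3.3 and matplotlib 3.10.9, and the fit was checked on simulated data. Those data held independent noise and no outlying library, so the check does not cover the effect of MYB_KnockDown replicate 1. Replicate numbers come from the titles. Each of the 19 alternatives changed 1 choice: a pseudocount of 0.1, no filter, quantile normalization, median-ratio scaling, a replicate block, only the 6 libraries compared, removal of a trend with transcript length, and each of the 12 libraries left out. No library pair of 66 held identical values. Same-numbered libraries of the wild-type and D152V rescues deviated together (every r over 0.1, from 0.153 to 0.233, each library closest to its own number). The numbers were taken to pair these groups. The main fit does not use this pairing, and the replicate block applies the numbers to all 4 groups.

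Values in all 12 libraries are given by rule for members passing in at least 1 of 4 comparisons (up to 8 a list by smallest adjusted p), KARS1, GARS1, HARS1 and HARS2. Up to 4 genes a pathway list were to be named; others are named where a count was 5 or fewer, after their values were seen. Gene coordinates and promoters are RefSeq GRCh38.p14, and motifs were searched on both strands.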

Additional observations from a re-analysis of the deposited data

Results flagged for a closer look

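The rescue lines differed in 3 synthetase genes by a direct limma test of the D152V rescue against the wild-type rescue. That test contains the shared knockdown only through the spread. The called genes are 10.5% of the cytosolic and 6.25% of the mitochondrial list, beside 12.1% of all tested genes, so neither list stands out by its count. QARS1 was higher in the D152V rescue by 0.64 on the log2 scale, with all 3 D152V libraries (151 to 169 FPKM) above all 3 wild-type rescue libraries (96.1 to 105). YARS1 was lower, by -0.61, with 81.1 to 99.0 FPKM against 125 to 151. TARS2 was higher by 0.63, with 32.1 to 37.6 FPKM against 19.2 to 25.4. With the replicate block, which is shared by all 4 groups, all 3 kept their calls. EPRS1 was a further gene in that fit, lower in the D152V rescue (limma adjusted p = 0.0362). Each rescue form was carried by 1 stable line, so the form and the line cannot be told apart.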

How the results depend on the processing

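Of 912 values of single genes under an alternative, 834 kept their direction and their side of the threshold, 61 lost the call, 17 gained one and 0 reversed. Without the low-value filter, the knockdown against the control gave 738 genes and 1 cytosolic synthetase, and the D152V rescue against the knockdown 0 mitochondrial synthetases. Quantile normalization left 1 cytosolic synthetase in the latter comparison. The replicate block left 0 mitochondrial ones there; the blocked fit gave NARS1 a call in the knockdown (adjusted p = 0.0407), and IARS1 lost its call there (0.0538), as did EARS2 in the D152V rescue (0.0583). Outside the pair of rescue groups, same-numbered libraries correlated from -0.0421 to 0.349, and in no other pair of groups was every r over 0.1. The numbers were therefore not taken to pair them. In the control and the knockdown, however, each library was closest to its own number (r from 0.0376 to 0.132), so whether the numbers pair these 2 groups was not settled. With only the 6 libraries compared, genes passing were 16 in the knockdown against the control, 1689 and 548 in the wild-type and D152V rescues against the knockdown, 3275 between the rescues, and 3512 and 3575 in the rescues against the control. The same fits called 0, 0, 0 and 4 cytosolic synthetases in the first 4 of these comparisons, and 0, 0 and 2 mitochondrial ones in the second to the fourth. Leaving out each library in turn gave, in that order, 173 to 2697, 3194 to 6055, 1639 to 4389, 1020 to 4209, 682 to 3973 and 725 to 3706 genes, 0 to 6, 2 to 11, 1 to 3 and 2 to 7 cytosolic, and 0 to 1, 1 to 3, 0 to 3 and 0 to 3 mitochondrial synthetases. The highest totals came without MYB_KnockDown replicate 1 in all but the D152V rescue against the knockdown. Such fits hold fewer libraries, and why these counts moved was not tested. Depth is unknown, so counting error could not be set beside the spread of the low mitochondrial genes.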

Other observations

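MYB_KnockDown replicate 1 lay outside the range of the other 11 libraries for 25 of the 35 synthetase genes. The cytosolic share was 73.7%, with 10 genes above and 4 below, and the mitochondrial share 68.8%, with 8 above and 3 below, beside 65% of all tested genes. No other library lay outside for more than 8 of the 35. GARS1 and TARS1 were the most extreme, at 4.55 and 3.31 times the mean of the other knockdown libraries. AARS2 and LARS2 were low there, at 4.50 and 8.74 FPKM against 10.1 to 14.0 and 15.2 to 24.0 in the other libraries.

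The summed FPKM of the 19 cytosolic genes in that library was 3327 against 2161 to 2456 elsewhere, but as a share of the library's FPKM total it was the lowest of the 12, 0.274% against 0.293% to 0.359%. The mitochondrial genes summed to 468 FPKM there against 322 to 369 elsewhere, and their share was likewise the lowest, 0.0385% against 0.0449% to 0.0534%.

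Several synthetase genes share a start region with a gene read the other way, and in these pairs the partner did not always move with the synthetase. RARS2 passed in no comparison, while ORC3, whose start lies 148 bases away, rose from knockdown to wild-type rescue by 0.71 (limma adjusted p = 0.00194). SARS2 likewise passed in none over the 12 libraries, while MRPS12, 181 bases away, fell by 1.13 in that comparison (limma adjusted p = 0.0136). The knockdown values of SARS2 were 74.4, 21.1 and 24.6 FPKM. Without MYB_KnockDown replicate 1, SARS2 was called higher in the wild-type rescue than in the knockdown. TERF2IP, 108 bases from KARS1, did not pass where KARS1 fell (0.12, limma adjusted p = 0.703). These pairs were singled out after their values were seen, and whether the changes within a pair differ was not tested.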
